A study of Mus musculus with 21 samples.

Results

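Cytosolic ribosomal protein genes encode the proteins of the large (60S) and small (40S) subunits of the ribosome that translates nuclear messages. They were chosen by symbol as protein-coding genes named Rpl or Rps with a number, with or without a following a, x, y or l and a further digit, together with Rpsa, Rplp0, Rplp1 and Rplp2. The S6 kinases, whose symbols begin with Rps6k, were left out. The rule gave 84 of the 21631 protein-coding genes on chromosomes 1 to 19 and X, 52 named Rpl and 32 named Rps, and 5 further symbols that match it are annotated as pseudogenes and were not counted. The rule itself uses symbols and no measured value.

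The study mapped estrogen receptor alpha (ERα), the nuclear receptor for estradiol, with ChIP-seq, the sequencing of DNA bound by a protein, in CD-1 mice aged 10 weeks. The 5 groups used were vWAT of mice given estradiol (4 libraries), vWAT of mice given vehicle (2 libraries), and scWAT (3 libraries), BAT (1 library) and Liver (2 libraries) of mice given estradiol. The labels give no genotype, transgene, dose or time of treatment, and do not say whether libraries came from separate animals. Each group had 1 deposited peak list, of 20715, 7400, 17971, 5193 and 21411 peaks in the order above. Since a group has a single list, the spread over replicates cannot be measured and nothing was tested across them. The read depth is unknown. The 95% Wilson intervals describe only the counting error of genes or peaks. A hormone, tissue or library difference between lists cannot be told apart from a difference in depth or in the number of libraries. Of 6 adipocyte marker genes (such as Adipoq and Plin1), 6, 3, 5, 2 and 5 had a summit inside the gene or within 25 kb in these lists. Of 5 brown fat markers 4, 1, 2, 2 and 4 had one, and of 6 hepatocyte markers 3, 1, 2, 1 and 4. Markers of other cells were listed as well. Of 4 macrophage markers 2, 1, 3, 1 and 3 had a summit, and of 3 endothelial markers 1, 1, 1, 1 and 2. Of 3 epithelial markers 2, 2, 2, 1 and 3 had one, and of 3 lymph node markers 1, 2, 2, 1 and 3. No share of all genes was computed at 25 kb, so these counts cannot be told apart from the length of the lists. A peak beside a marker does not measure its expression.

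Ribosomal protein genes are transcribed at a high rate in nearly every cell type, and their messages commonly begin with a run of pyrimidines that couples their translation to growth signalling. They are often used as a housekeeping reference, since their products are needed in fixed proportion and none is restricted to fat or liver. Some members are paralogs with tissue-restricted use, such as Rpl3l of striated muscle and Rpl10l and Rpl39l of testis. A member was counted as having a peak when a summit, the position of highest signal in a peak, lay within 1 kb of either end of the gene. The enrichment of a peak is the authors' own ratio over a background that is not stated, and it was compared within a list only.

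In the whole lists most ribosomal protein genes had an ERα peak at an end in vWAT, with hormone and without. The same held for scWAT and Liver but not for BAT. In vWAT 57 of 84 members (67.9%, interval 57.3 to 76.9) had a peak with estradiol, against 25.8% of all protein-coding genes. With vehicle the count was 49 of 84 (58.3%, 47.7 to 68.3), against 20.9% of all genes. In scWAT 67 members had a peak (79.8%, 70.0 to 87.0), against 26.7% of all genes. In Liver the count was 66 (78.6%, 68.7 to 86.0), against 28.3%, and in BAT, the shortest list, it was 26 (31.0%, 22.1 to 41.5), against 10.0%. The share of members was 2.63 to 3.1 times the share of all genes in the 5 lists, and 76 of 84 members had a peak in at least 1 list. The comparison with all genes is a description, since the members are short (median span 3179 bp against 17329 bp over all genes) and all genes include those silent in fat and liver. The members as a group were thus listed about as far above the background without hormone (2.79 times) as with it (2.63 times), a difference that was not tested.

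**Figure D1:**
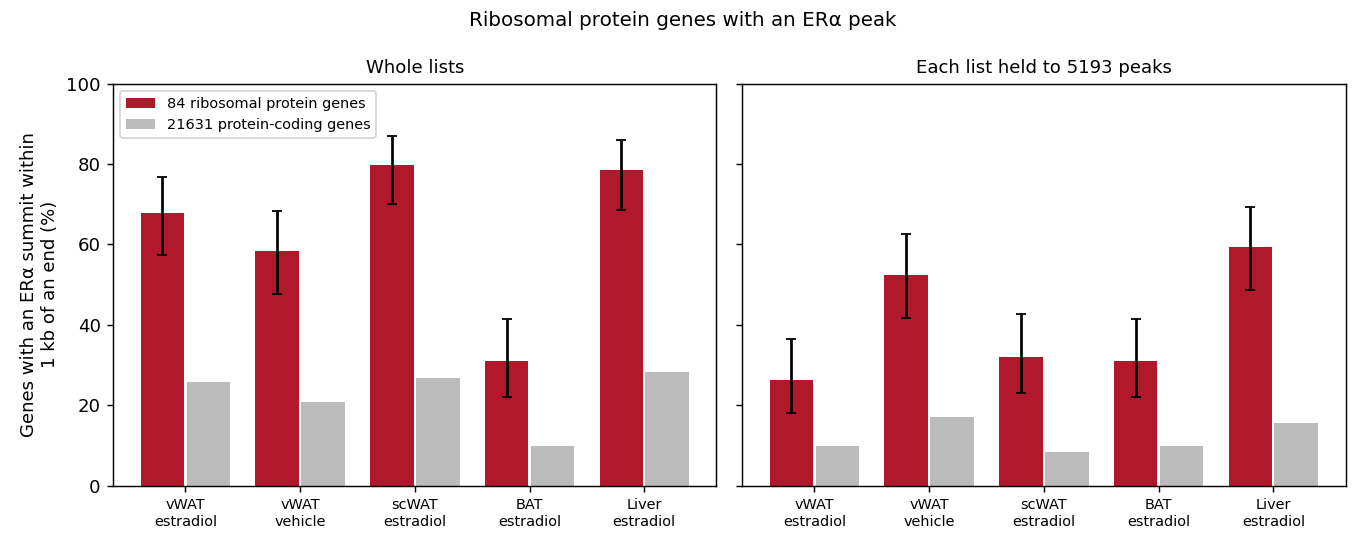
Share of the 84 ribosomal protein genes (red, with 95% Wilson intervals) and of all 21631 protein-coding genes (grey) with an ERα summit within 1 kb of an end, for whole lists (left) and for the 5193 strongest peaks of each list by p-value (right). The red bars stand above the grey in all 5 lists, from 31.0% in BAT to 79.8% in scWAT for whole lists, and the vWAT vehicle and Liver bars are highest at equal size.

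As a share of the peaks themselves, members took a larger part of the vehicle list than of the estradiol list of vWAT. Summits at member ends made up 62 of 20715 vWAT peaks with estradiol (0.299%, 0.234 to 0.383) and 50 of 7400 with vehicle (0.676%, 0.513 to 0.89). The shares were 0.423% (0.338 to 0.529) in scWAT, 0.501% (0.342 to 0.733) in BAT and 0.322% (0.255 to 0.408) in Liver. Peaks at the ends of any gene made up 24.0% of the vWAT estradiol list and 52.0% of the vehicle list. Of those gene-end peaks, members held 1.24% (0.972 to 1.59) with estradiol and 1.3% (0.986 to 1.71) with vehicle. The corresponding values were 1.43% in scWAT, 1.45% in BAT and 1.28% in Liver, so that all 5 lay within each other's intervals. The shares of members thus lay closer together over gene-end peaks than over all peaks.

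**Figure D2:**
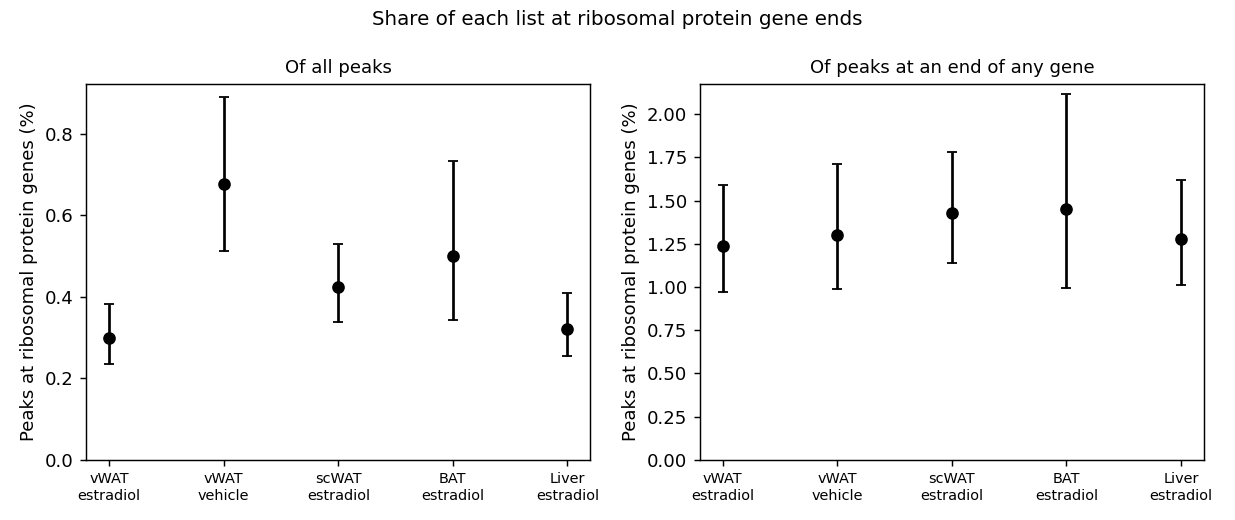
Peaks with a summit at a ribosomal protein gene end as a percentage of all peaks of a list (left) and of its peaks at an end of any protein-coding gene (right), with 95% Wilson intervals. The left values run from 0.299% to 0.676% with the vehicle list highest, and the right values lie between 1.24% and 1.45%.

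When only the 5193 strongest peaks of each list by p-value were kept, the vehicle list of vWAT held more members than the estradiol list. The counts were 22 of 84 with estradiol (26.2%, 18 to 36.5, against 9.84% of all genes) and 44 with vehicle (52.4%, 41.8 to 62.7, against 17.2%). In scWAT 27 members had a peak at this size (against 8.5% of all genes), in BAT 26 (against 10.0%) and in Liver 50 (against 15.7%). The share of all genes was also higher with vehicle than with estradiol at this size. At this size 21 members had a peak in both vWAT lists (9.05% of all genes did) and 23 in the vehicle list alone (8.16%). A single member, Rps24, had one in the estradiol list alone (0.791% of all genes), and 26 were in no list (75.5% of all genes).

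Over whole lists, 43 of 84 members (51.2%, 40.7 to 61.6) had a peak in both vWAT lists, against 16.9% of all genes. A further 14 members (16.7%, 10.2 to 26.1) had one with estradiol and not with vehicle, against 8.89% of all genes, and 6 (7.14%, 3.31 to 14.7) the other way round, against 3.99%. Of the 57 members with an estradiol peak, 43 (75.4%, 62.9 to 84.8) also had a vehicle peak, compared with 65.6% of all genes with an estradiol peak. Of the 49 with a vehicle peak, 87.8% (75.8 to 94.3) also had an estradiol peak, compared with 80.9% of all such genes. At equal size these shares were 95.5% against 92.0% over all genes, and 47.7% against 52.6%. Each of the 4 intervals for members includes the value over all genes. At this number of genes, members could therefore not be told apart from all genes in how often peaks were shared.

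Peaks of all 5 lists were found at 22 members (26.2%, 18 to 36.5), against 6.94% of all genes, and at 14 members with lists of equal size, against 5.02% of all genes. A further 21 members had peaks in 4 lists, and in 18 of these 21 the list without one was BAT. BAT is the shortest list, and the missing list was not counted over all genes. In 3 lists were 12 members (14.3%, against 6.51% of all genes), and in 2 lists 14 (16.7%, against 7.82%). In 1 list were 7 (8.33%, against 13.1%), and 8 (9.52%) were in none, whereas 58.4% of all genes were in none. Of the 26 members with a BAT peak, 22 were in all 5 lists, and the exceptions were Rpl35, Rpl11, Rpl21 and Rps29. Over all genes 2163 had a BAT peak and 1502 were in all 5 lists. Of 52 large-subunit and 32 small-subunit members, 25% (15.2 to 38.2) and 28.1% (15.6 to 45.4) were in all 5 lists. In vWAT with estradiol 75% (61.8 to 84.8) of large-subunit and 56.2% (39.3 to 71.8) of small-subunit members had a peak, and with vehicle 61.5% (48 to 73.5) and 53.1% (36.4 to 69.1), with intervals that overlap.

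**Figure D3:**
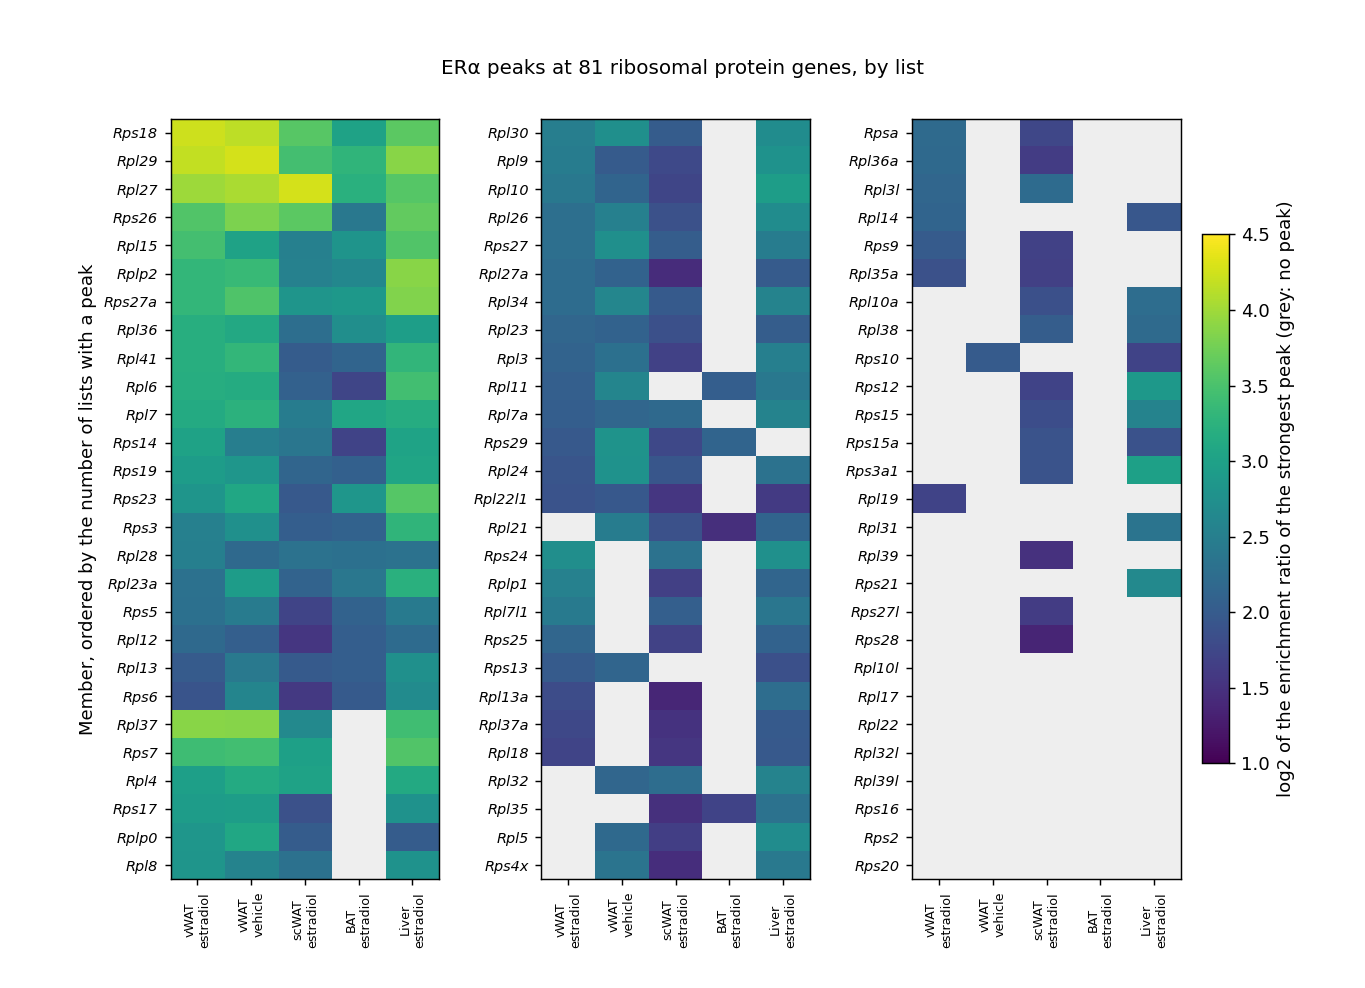
Enrichment ratio (log2 colour scale) of the strongest ERα peak within 1 kb of an end of each of 81 members, in the 5 lists, with grey where a list has no such peak. Members are ordered by the number of lists and then by the vWAT estradiol value, from Rps18 (18.9) at the upper left to the 8 members without a peak at the lower right, and members listed everywhere but in BAT follow those with 5 peaks.

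The strongest member peaks of vWAT were the same with and without hormone. Rps18, a protein of the head of the small subunit, had an enrichment of 18.9 in vWAT with estradiol, 17.8 with vehicle, 12.03 in scWAT, 8.07 in BAT and 12.2 in Liver. Rpl29, a large-subunit protein, had 18.2, 19.3, 10.99, 9.80 and 14.7 in the same order. Rpl27, another large-subunit protein, had 15.8, 16.7, 19.3, 9.34 and 11.9, and was the strongest member in scWAT. In GRCm38.p6 the spans are chr17:33951998-33955665 for Rps18, chr9:106428889-106431568 for Rpl29 and chr11:101442245-101445596 for Rpl27. These 3 genes held the first 3 places among members in both vWAT lists. Within the vWAT estradiol list, 99.6% of all peaks were weaker than that of Rps18.

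Rps26, which lines the exit of the message channel, had 11.7, 14.02, 12.3, 5.30 and 12.6. Rpl15 had 10.9, 8.06, 5.75, 7.01 and 11.7. Rplp2, an acidic protein of the stalk that recruits translation factors, had 10.00, 10.3, 5.80, 6.13 and 14.7. Rps27a, which is made as a fusion with ubiquitin, had 9.96, 11.6, 7.08, 7.27 and 14.3. These genes were among the leading members of those found in all 5 lists. Rpl37 (14.8 with estradiol and 14.6 with vehicle in vWAT) and Rps7 (10.6 and 10.8) were as strong in vWAT but had no BAT peak within 1 kb. The lower end of the 22 held Rps6, the substrate of the S6 kinases, with 3.76, 6.01, 2.98, 3.98 and 6.44, and Rps19, a gene mutated in Diamond-Blackfan anaemia, stood in the middle with 7.66, 7.16, 4.39, 4.22 and 8.31.

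Over all member peaks the median enrichment was 4.87 in the vWAT estradiol list, where the median was 5.18 over peaks at any gene end and 4.84 over the whole list. In the vehicle list the 3 medians were 6.4, 5.65 and 4.77. In scWAT they were 3.65, 3.43 and 3.43, in BAT 4.65, 4.58 and 4.32, and in Liver 5.93, 5.01 and 3.91. A −log10 q-value of 2 or more was given to 57 of 62 member peaks in vWAT with estradiol, 45 of 50 with vehicle, 73 of 76 in scWAT, 13 of 26 in BAT and 59 of 69 in Liver. Over peaks at any gene end the shares were 91.4%, 80.9%, 88.9%, 50.5% and 74.9%, so the value for BAT was that of its gene-end peaks in general. Within the vWAT estradiol list the members were ordinary gene-end peaks in strength. In the Liver list the medians of members (5.93) and of peaks at any gene end (5.01) both stood above that of the list (3.91).

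The strongest summits of a member often lay close together across tissues and treatments. For the 22 members in all 5 lists the strongest summit of each list was taken. These 5 summits spanned a median of 135.5 bp, from 32 bp at Rps18 to 464 bp at Rpl12, and 13 of the 22 spanned at most 200 bp. Second peaks, which 12 members had in some list, were left out and can lie further away, as at Rps6 in scWAT (850 bp inside the gene). The same spread over other genes was not computed. The Rps18 summits lay 217 bp before the start of the gene in vWAT with estradiol, 211 bp before it with vehicle, and 232, 205 and 200 bp before it in scWAT, BAT and Liver. At Rpl29 all 5 lay 574 to 622 bp from the nearer gene end, within 48 bp of each other. Of the member peaks of the vWAT estradiol list, 69.4% (57.0 to 79.4) overlapped a vehicle peak by at least 1 bp, against 58.9% of its peaks at any gene end and 22.7% of all its peaks. The shares found in scWAT, BAT and Liver were 91.9%, 38.7% and 80.6%, against 68.5%, 27.6% and 62.4% of peaks at any gene end.

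Promoters of 3 leading members are shown because the summits of Rps18 and Rps26 fall inside the printed bases or next to them, and those of Rpl27 just beyond the start. The sequences are RefSeq promoters of GRCm38.p6, the assembly of mm10, each on the strand of its gene and ending 20 bases into the transcript. Capitals mark matches to the motifs with fixed letters listed further on, and the run of pyrimidines at the start of a transcript is not marked. Rps18 lies at chr17:33955646-33955915 (- strand), Rpl27 at chr11:101441995-101442264 (+ strand) and Rps26 at chr10:128626487-128626756 (- strand).
Rps18 promoter: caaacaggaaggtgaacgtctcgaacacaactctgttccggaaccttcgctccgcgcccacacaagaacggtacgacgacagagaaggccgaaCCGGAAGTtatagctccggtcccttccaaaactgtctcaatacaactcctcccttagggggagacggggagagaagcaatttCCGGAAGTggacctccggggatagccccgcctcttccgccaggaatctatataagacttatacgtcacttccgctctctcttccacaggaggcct
Rpl27 promoter: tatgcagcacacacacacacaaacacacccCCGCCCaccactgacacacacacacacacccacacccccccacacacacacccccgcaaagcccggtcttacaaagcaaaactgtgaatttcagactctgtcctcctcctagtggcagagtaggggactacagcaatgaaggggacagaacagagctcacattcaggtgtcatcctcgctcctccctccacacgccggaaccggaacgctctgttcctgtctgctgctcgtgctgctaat
Rps26 promoter: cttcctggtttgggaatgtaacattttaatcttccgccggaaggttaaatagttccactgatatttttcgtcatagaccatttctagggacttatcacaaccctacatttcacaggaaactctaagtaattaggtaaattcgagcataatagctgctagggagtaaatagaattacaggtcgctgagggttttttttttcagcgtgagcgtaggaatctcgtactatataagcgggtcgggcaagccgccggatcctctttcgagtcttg
The Rps18 promoter holds 2 ETS motifs (CCGGAAGT), which begin 157 and 75 bases before the start, downstream of the summits, and has a C followed by 4 pyrimidines at the start. The Rpl27 promoter holds 1 Sp/KLF motif on the opposite strand, and its summits lay 17 to 102 bp inside the gene. The Rps26 promoter holds none of the motifs searched, and its summits lay 174 to 251 bp before the start.

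Members with a vWAT peak under 1 treatment alone had weaker peaks, by the median, than those shared. The same comparison was not made over all genes, so it cannot be called a trait of the members. The 14 estradiol-only members had enrichments of 3.26 to 6.63 in the estradiol list (median 4.41), whereas the 43 members found with both treatments had 3.71 to 18.9 there (median 5.75). Rpl19, the lowest of the 14 (3.26), and Rpl18 (3.28) had a vehicle summit 25 and 225 bp from an annotated start site. The rule based on span ends did not count those summits. Rps24, a small-subunit protein, was the strongest of the 14 with 6.63 and a −log10 q-value of 13.6, and the nearest vehicle summit was 282392 bp away. It also had a peak in scWAT (4.999) and Liver (6.76) and none in BAT. Rplp1, a stalk protein that pairs with Rplp2, had 5.78 in vWAT with estradiol, 3.18 in scWAT and 4.43 in Liver. Rpl7l1, a paralog of Rpl7, had 5.37, 4.17 and 5.21 in these 3 lists. Rpsa, also known as the laminin receptor, had 4.64 in vWAT and 3.35 in scWAT, and Rpl36a had 4.59 and 3.09. Rps25 (4.44) and Rpl14 (4.38) were likewise listed with estradiol and not with vehicle. Of the 14, 12 had a peak in scWAT (85.7%, 60.1 to 96), 8 in Liver (57.1%, 32.6 to 78.6) and 0 in BAT (upper bound 21.5%). Over all genes with an estradiol and no vehicle peak in vWAT these shares were 50.2%, 45.3% and 9.36%.

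The 6 vehicle-only members had enrichments of 3.42 to 5.56 in the vehicle list (median 4.52), against 3.89 to 19.3 (median 6.86) for the 43. Rpl21 had 5.56 with vehicle and peaks in scWAT (3.64), BAT (2.76) and Liver (4.39). Rps4x, the X-linked small-subunit protein, had 5.09 with vehicle, 2.75 in scWAT and 5.31 in Liver. Rpl5, which carries 5S ribosomal RNA into the large subunit and can bind Mdm2, had 4.598, 3.15 and 6.53, and Rpl32 had 4.45, 4.74 and 5.89. Rps10 was found with vehicle (4.02) and in Liver (3.25). All 6 vehicle-only members had a Liver peak (lower bound 61%), against 50.9% of all genes with a vehicle and no estradiol peak in vWAT. Rpl11, the partner of Rpl5 on 5S RNA, was listed in vWAT with both treatments (4.15 and 6.03).

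The promoters of Rps24 and Rps4x show the leading canonical member, with a promoter in the table, of each of these 2 classes, and that of Rps16 shows a member without a peak. They lie at chr14:24490428-24490697 (+ strand), chrX:102189372-102189641 (- strand) and chr7:28350439-28350708 (+ strand), in the same format.
Rps24 promoter: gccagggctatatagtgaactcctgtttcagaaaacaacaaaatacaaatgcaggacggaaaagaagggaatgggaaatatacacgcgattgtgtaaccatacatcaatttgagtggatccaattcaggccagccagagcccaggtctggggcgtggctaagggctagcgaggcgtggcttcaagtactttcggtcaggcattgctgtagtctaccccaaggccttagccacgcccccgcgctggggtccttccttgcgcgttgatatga
Rps4x promoter: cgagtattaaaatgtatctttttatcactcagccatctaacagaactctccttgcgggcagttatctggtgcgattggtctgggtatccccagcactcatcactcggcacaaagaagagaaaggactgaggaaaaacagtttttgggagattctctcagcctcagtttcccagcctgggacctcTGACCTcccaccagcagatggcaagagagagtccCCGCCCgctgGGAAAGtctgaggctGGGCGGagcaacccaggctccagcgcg
Rps16 promoter: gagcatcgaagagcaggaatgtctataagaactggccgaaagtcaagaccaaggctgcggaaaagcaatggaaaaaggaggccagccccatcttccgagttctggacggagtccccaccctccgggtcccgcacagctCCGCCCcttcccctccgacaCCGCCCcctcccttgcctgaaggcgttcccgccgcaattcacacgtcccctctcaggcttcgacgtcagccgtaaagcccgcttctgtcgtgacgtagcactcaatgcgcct
The Rps24 promoter holds none of the motifs with fixed letters but has a C and 4 pyrimidines at its start, and its vWAT estradiol summit lay 308 bp before the start, beyond the printed bases. The Rps4x promoter holds the short site AGGTCA, a part of the estrogen response element, on the opposite strand (printed as TGACCT), 66 bases before the start. It also holds an Sp/KLF motif on each strand, 7 and 32 bases before the start. A pyrimidine run (CTTTCC, printed as GGAAAG) begins 22 bases before it on the opposite strand. The vehicle summit of Rps4x lay 186 bp inside the gene. The Rps16 promoter holds 2 Sp/KLF motifs on the opposite strand and no AGGTCA, and the nearest summit of any list was 11718 bp from the gene.

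In scWAT and Liver, lists of 67 and 66 members, 58 members (69.0%, 58.5 to 77.9) had a peak in both, against 18.9% of all genes. Across the 4 tissues, with the vWAT lists joined, 7 members (8.33%, 4.1 to 16.2) had a peak in exactly 1, against 13.8% of all genes. Those with a peak within 1 kb in Liver alone included Rps21 (6.24) and Rpl31 (5.07). Rps27l, a paralog of Rps27 (3.08), Rpl39 (2.82) and Rps28 (2.58) had one in scWAT alone, and Rpl19 (3.26) in vWAT with estradiol alone. By annotated start site, Rps27l also had a vWAT vehicle summit at 263 bp, and Rpl19 had summits in further lists, given below. No member was found in BAT alone. Rps3a1 (3.73 in scWAT and 7.96 in Liver) and Rps12 (3.27 and 7.28) were listed in those 2 tissues with no vWAT peak. Rpl38, whose loss in mice alters axial patterning, was listed in the same 2 (4.10 and 4.65).

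Members without a peak in any list included 3 that are paralogs or copies. Rpl10l, Rpl39l and Rpl32l had no summit within 17 kb in any list. Of the other tissue-restricted paralogs, Rpl3l had 4.46 in vWAT with estradiol and 4.66 in scWAT, but those summits were nearer to Msrb1, 347 and 367 bp from its end. Rpl22l1, a paralog of Rpl22, had peaks in 4 lists (3.71, 3.89, 2.93 and 3.01 in vWAT with estradiol, vWAT with vehicle, scWAT and Liver). The remaining 5 without a peak were Rps20, Rps16, Rpl17, Rps2 and Rpl22. Rps20 had no summit within 65 kb of an end.

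The 1 kb limit decided the count for a few genes. Just inside it were Rpl19 at 908 bp in vWAT with estradiol, Rpl3l at 817 bp in scWAT, Rpl38 at 788 bp in Liver, and Rpl29 at 574 bp in vWAT with vehicle and 622 bp in BAT. Just outside were Rpl22, at 1283 bp with estradiol and 1015 bp with vehicle in vWAT and 1285 bp in Liver, Rps10 at 1006 bp in scWAT and Rpl38 at 1815 bp in BAT. The gene span can also begin before the start site that the promoter table gives. Rpl22 had a summit within 7 bp of a listed start site in vWAT with estradiol, 76 bp in scWAT and 5 bp in Liver. Rps2 had one at 352, 68 and 13 bp, its start site lying 1942 bp inside the span. Rpl19 had one at 25 bp with vehicle, 202 bp in scWAT and 25 bp in Liver. With vehicle, Rpl18 had one at 225 bp and Rps27l at 263 bp. These genes therefore had a peak at a start site in lists where the rule based on span ends gave none.

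Most member summits lay nearer to the start of the gene than to its far end, as did most summits over all genes. Strand was given for 64 of 84 members. Of 206 summits at these members over the 5 lists, 196 (95.1%) were nearer to the start. The same genes recur across lists, so these summits are not independent and no interval is given. Per-list shares were 91.4% to 100%, against 90.9% to 94.5% over all genes. The median position was 79 bp before the start in vWAT with estradiol and 52 bp before it with vehicle, and the corresponding medians over all genes were 94 and 86 bp before it. In the vWAT estradiol list 36.4% of member summits and 26.7% of all summits lay over 50 bp inside the gene. With vehicle these shares were 39.4% and 24.5%. Within 50 bp of the start lay 28.3% of member summits in scWAT, against 12.1% over all genes. In the other 4 lists that share was lower for members, with 9.09% against 14.7% in vWAT with estradiol, 9.09% against 17.1% with vehicle, 18.8% against 19.7% in BAT and 14% against 19.9% in Liver. Whether these positions differ from those of other genes was not tested.

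**Figure D4:**
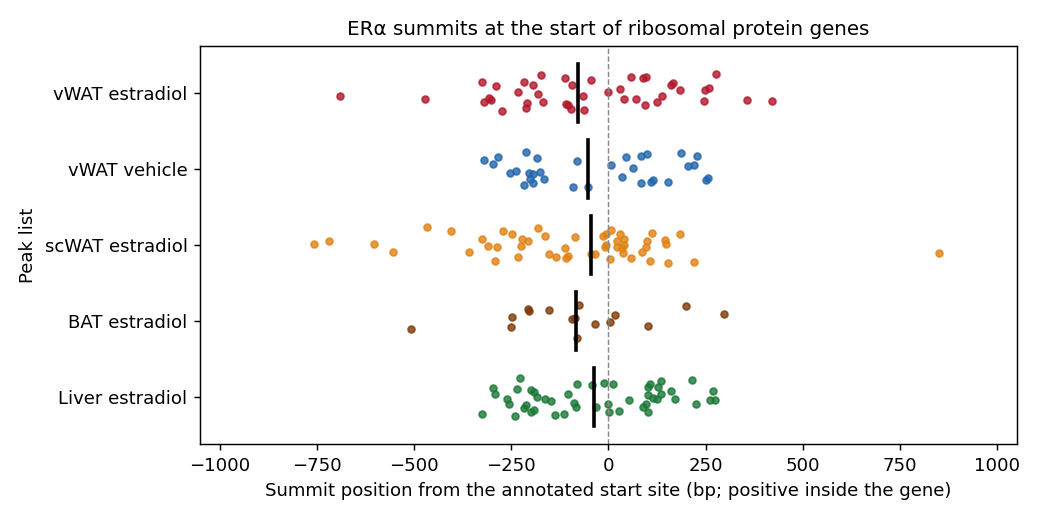
Summit position relative to the annotated start site (bp, positive inside the gene) for peaks at members with known strand that lie nearer to the start than to the far end, by list, with black bars at the medians and 3 of 196 summits beyond the axis. Most points of every list lie close to the start, on both sides of it.

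Several of the strongest member peaks had a summit nearer to a neighbouring gene than to the member. Of 283 member-summit pairs, 37 had another protein-coding gene end nearer to the summit, at 11 members. In all 5 lists the summits of Rps18 were nearer to Vps52, the strongest summits of Rplp2 nearer to Pidd1 and those of Rpl15 nearer to Nkiras1. The Rps18 summit in vWAT with estradiol was 103 bp from Vps52 and 217 bp from Rps18. Peaks at Rpl37 were nearer to Card6 in 3 lists, and those at Rpl4 nearer to Zwilch in 3. Counting only summits nearest to the member left 49 members in vWAT with estradiol and 43 with vehicle. The shares of all genes fell as well, from 25.8% to 22.1% with estradiol and from 20.9% to 17.5% with vehicle. Which of 2 neighbouring genes a peak belongs to cannot be told apart here.

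The full binding motif of the receptor was rare in promoters of all genes and absent from those of members. The 64 promoters run from 250 bases before the start to 50 after it and were searched on both strands. The full estrogen response element was in 0 of 64, an upper Wilson bound of 5.66%, and in 0.0405% of all 17274 promoters. At so low a share its absence from 64 promoters says little about the members. The short site AGGTCA was in 7 of 64 (10.9%, 5.4 to 20.9), an interval that includes the 14.4% of all promoters. It can match inside the full element. It was in 2 of 29 members found in 4 or 5 lists and 2 of 12 in 0 or 1, against 10.0% of all genes in 4 or 5 lists and 16.0% of those in none. A match is a description of letters and not a bound site.

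Of the other motifs, some were more frequent in members than in all promoters and some were not. The ETS motif CCGGAAGT was in 12 of 64 (18.8%, 11.1 to 30), against 5.34% of all promoters and 15.0% of promoters of all genes found in 4 or 5 lists. YY1 (AAGATGGC) was in 9.38% against 3.23%, Sp/KLF (GGGCGG) in 59.4% against 46.9% (60.5% in promoters of all genes in 4 or 5 lists), and a pyrimidine run (CTTTCC) in 45.3% against 26.1%. NRF1 (GCGCATGC) was in 3.12% against 3.64%, and the E-box CACGTG in 7.81% against 8.01%. A C followed by 4 pyrimidines, beginning within 1 base of the start, a form of the pyrimidine run that marks these messages, was in 29.7% (19.9 to 41.8) of members against 6.24% of all promoters, and it was added to the motifs after the promoters had been looked at. Among members the ETS motif was in 20.7% of those in 4 or 5 lists and in 3 of the 12 in 0 or 1. The median number of CG dinucleotides was 21 in members, 20 in promoters of all genes in 4 or 5 lists and 6 in those of genes in no list.

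Other genes of translation and energy metabolism were listed about as often as the ribosomal protein genes. Of 78 mitochondrial ribosomal protein genes, 60 (76.9%, 66.4 to 84.9) had a peak in vWAT with estradiol and 52 (66.7%) with vehicle. Of 71 initiation and elongation factor genes the counts were 42 (59.2%) and 37 (52.1%), and of 32 ribosome biogenesis genes 18 (56.2%) and 20 (62.5%). Of 100 oxidative phosphorylation subunit genes they were 67 (67.0%) and 53 (53.0%), and of 39 proteasome subunit genes 25 (64.1%) and 17 (43.6%). The intervals of all these lists overlap those of the 84 members in both vWAT lists. In Liver the members (78.6%) stood above initiation and elongation factors (56.3%, 44.8 to 67.3) with intervals that do not overlap, and above oxidative phosphorylation subunits (63.0%, 53.2 to 71.8) with intervals that do. The shares in all 5 lists ran from 17.9% to 30.8% in these 5 lists of genes, around the 26.2% of members.

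**Figure D5:**
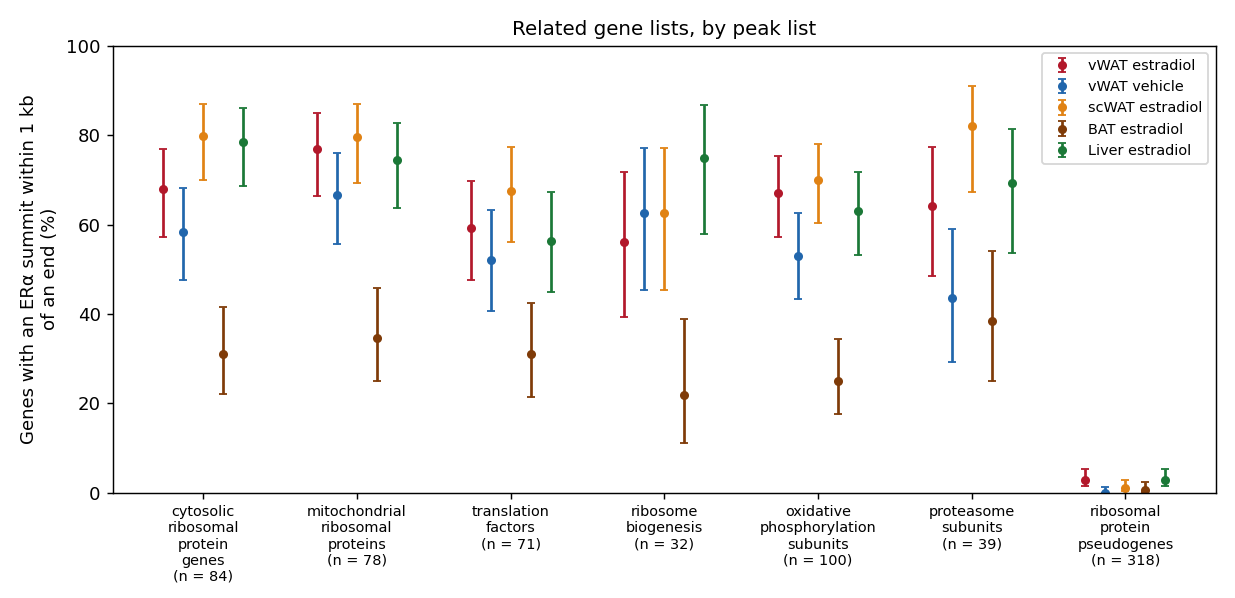
Percentage of genes with an ERα summit within 1 kb of an end for the 84 members and 6 related gene lists, in each of the 5 peak lists, with 95% Wilson intervals. The 6 lists of protein-coding genes, members included, lie between 21.9% and 82.1%, with BAT lowest in each, whereas the 318 pseudogenes lie at or below 2.83%.

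Processed copies of ribosomal protein genes in the genome were seldom listed. Of 318 pseudogenes named after Rpl or Rps genes, 9 (2.83%, 1.5 to 5.29) had a summit within 1 kb in vWAT with estradiol, 0 with vehicle (upper Wilson bound 1.19%), 3 in scWAT, 2 in BAT and 9 in Liver. Rpl35a-ps3 was the 1 found in the most lists, with 6.27 in vWAT with estradiol, 3.95 in scWAT, 3.76 in BAT and 3.85 in Liver. The strongest value, 8.15 for Rplp2-ps1 in Liver, lay 471 bp from the end of a protein-coding gene. These named pseudogenes were singled out after their values were seen. Reads of near-identical copies can be lost or misplaced by an aligner, and how the authors treated them is not given in the sources used here.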

How the data were processed

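ERα ChIP-seq of 5 groups in a series of 21 samples was used. H3K27ac ChIP-seq and RNA-seq were not analysed here. The build is mm10 per the submitters' processing notes, which also name HOMER and BWA 0.7.12 without a role. How peaks were called, against which control, and how the libraries of a group were joined is not stated in any label. For each peak the authors deposited a fold enrichment ratio, a −log10 p-value, a −log10 q-value, a score that follows the −log10 p-value, and a summit. No read depth was used, as the lists hold none.

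Peaks on chromosomes 1 to 19 and X were used. Gene spans and biotypes come from RefSeq (GRCm38.p6), strand and promoters from RefSeq promoter sequences, found for 64 of 84 members and 17274 of 21631 protein-coding genes. Shares carry 95% Wilson intervals. Peaks overlapped when they shared at least 1 bp. Lists of equal size took the peaks with the smallest p-values. Members, gene lists and motifs were chosen with earlier results of these data known. Genes named in the text are the leading members in all 5 lists (up to 8), up to 8 members of each vWAT class, the 3 strongest of each list, up to 3 found in 1 tissue, those without a peak, paralogs, and those next to the 1 kb limit. Rpl37, Rps7, Rps6, Rps19, Rpl11, Rps3a1, Rps12, Rpl38, Rpl35, Rps29, Rpl18, Rpl12 and Rpl4 were named after their values were seen. Some members that the rule names are not reported here. Counting was tested on simulated peaks. The software was matplotlib 3.10.9, scipy 1.17.1, pandas 2.3.3 and numpy 2.4.6 under Python 3.11.15.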

Additional observations from a re-analysis of the deposited data

How the results depend on the processing

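Counts were taken as alike within 1.5 times and shares of peaks as alike within the main Wilson interval. Of 147 recomputed values, 112 were alike and 35 were not. In all 50 recomputed list counts the share of members stayed above that of all genes, by 1.99 to 3.79 times. No paired analysis was possible because each group has 1 peak list for all its libraries, and for the same reason no replicate was left out. Leaving out the paralogs gave counts of members and no share of peaks.

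With lists of equal size the members with a peak fell to 22 in vWAT with estradiol and 27 in scWAT, those in both vWAT lists to 21, with estradiol alone to 1 and in all 5 lists to 14, while those with vehicle alone rose to 23 and in no list to 26, and the shares of peaks were 0.424% in vWAT with estradiol and 0.982% in Liver. With peaks at a −log10 q-value of 2 or more, BAT held 13 members (0.748% of its peaks), Liver peaks 0.593%, and 13 members were in all 5 lists. Members in no list numbered 13 at 500 bp, 5 at 2 kb, 5 at 5 kb and 13 when summits had to be nearest to the member. At 5 kb the shares were 0.386% in vWAT with estradiol and 0.54% in scWAT. With the start of the span alone, which covers 64 members, BAT held 16 members, 14 were in all 5 lists and 3 with vehicle alone, and the shares were 0.212%, 0.446%, 0.295%, 0.308% and 0.234% in vWAT with estradiol, vWAT with vehicle, scWAT, BAT and Liver. With start sites of the promoter table, also 64 members and chosen after the data were seen, as was the rule of the nearest summit, BAT held 16, 14 were in all 5 lists and 5 in none, and the shares were 0.222%, 0.486%, 0.312%, 0.308% and 0.243%. Fewer members entered both of these counts by construction. The cause of the other changes was not tested.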

Other observations

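The naming rule leaves out 5 genes of ribosomal proteins. Rack1, a scaffold protein of the small subunit, had an enrichment of 3.61 in vWAT with estradiol, 4.73 with vehicle, 3.77 in scWAT and 5.96 in Liver. Fau, which encodes a ubiquitin-like fusion of a small-subunit protein, had 3.39 in scWAT and 3.49 in Liver. Rpl36al had 4.90 in vWAT with estradiol and 5.80 with vehicle, and Rps27rt had no peak. None of the 5 had a BAT peak within 1 kb.

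Many ribosomal protein genes carry small nucleolar RNAs, guides of ribosomal RNA modification, in their introns. Such an RNA lay inside 30 of 84 members (35.7%). The share was 37.2% among the 43 members in 4 or 5 lists, 30.8% among the 26 in 2 or 3, and 6 of the 15 in 0 or 1 had one. Another protein-coding gene end within 1 kb was present at 37.2%, 38.5% and 26.7% of these members. No difference between these classes was tested.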
